A study of Rattus norvegicus with 9 samples.

Results

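The genes described here encode the proton pump that acidifies lysosomes, the chloride-proton exchanger that works beside it, and the lysosomal proteases called cathepsins, in femurs of rats with an injured growth plate. Members were the protein-coding gene rows whose symbol starts with Atp6v0 or Atp6v1 or is Cts and 1 further letter, together with Tcirg1, Clcn7 and Ostm1. Ctsk, Ctsg and Atp6v0d2, genes of osteoclasts and neutrophils, were left out, and where a symbol recurred the row with the highest count was kept. This took 39 of 31125 gene rows: 8 of the membrane sector of the pump, 12 of its ATPase sector, 2 of the exchanger, 16 cathepsins, and Atp6v1fnb, a gene that shares its symbol's start with a pump subunit and is not known as one. Symbols for an a subunit isoform (Atp6v0a2) and the F subunit (Atp6v1f) were looked for and not matched, and these genes were not analysed here.

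Whole femurs were taken from male rats at day 7 in 3 groups of 3 libraries. Sham rats had sham surgery, GPI rats had a modelled injury of the distal femoral growth plate, and GMTT rats had that injury and treatment with a hydrogel called GMTT. The series title names the components of a hydrogel as GelMA, a gelatin carrying methacryloyl groups, TPGS, derived from vitamin E, and tea polyphenols. The sources used here do not name the strain, age or genotype, and no group analysed here received the hydrogel without the injury or a plain gel. Nothing says whether a library holds more than 1 femur, so a p-value covers only library-to-library spread, which may be partly technical.

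The vacuolar-type ATPase (V-ATPase) has a cytosolic V1 sector that hydrolyses ATP and a membrane V0 sector that carries protons into the lysosome. The exchanger Clcn7, held by its partner Ostm1, lets chloride in against protons. Osteoclasts place the same pump, with the a subunit isoform Tcirg1, on the membrane that faces bone, and loss of Tcirg1, Clcn7 or Ostm1 causes osteopetrosis, a disease of dense, poorly resorbed bone. Cathepsins are proteases that mature and work in this acid: most are cysteine proteases, Ctsd and Ctse are aspartic proteases, and Ctsa is a serine carboxypeptidase.

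Counts ran from 15927429 to 19715997 per library, and replicate pairs differed by more than counting noise (chi-square per degree of freedom 1.94 to 4.88). Genes of osteoblasts and osteocytes, the defining cells of bone, were detected in every group (10 of 10). All 10 chondrocyte genes had a count in Sham and in GMTT, and all but Matn1 had one in GPI. Matn1 was scarce throughout, below 0.563 CPM, the cutoff of the low-count filter, in every library. Library make-up differed between groups: mitochondrially encoded genes held 25.4 to 26.9% in GPI against 3.65 to 4.02% in Sham and 5.73 to 6.41% in GMTT, and skeletal muscle markers 9.94 to 10.5% against 0.225 to 0.241% and 2.15 to 2.31%. Because of this, the scale matters in both contrasts with GPI. Values below are normalised CPM (counts over a common library size, scaled by edgeR's TMM factors) unless stated. With library sizes only, the median log2 fold change of all genes moved from -0.19 to -1.28 in GPI against Sham and from 0.12 to 1.22 in GMTT against GPI, while GMTT against Sham moved from -0.003 to 0.006.

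The promoters of several members carry the letters bound by the TFEB, TFE3 and MITF family, the transcription factors known for driving lysosomal genes. RefSeq windows on the GRCr8 build, 250 bases before to 50 bases after the gene start, matched 31 of the 39 members. Only the first window listed for a symbol was kept, so other start sites of a gene were not searched. A kept window may not be the gene's main promoter. Ctsb, Ctsq, Ctsw, Atp6v1fnb, Atp6v0e2, Atp6v1b2, Atp6v1c1 and Atp6v1h had no entry. Both strands were searched for TCACGTGA, for CACGTG, which TCACGTGA contains, and for TCACATGA with its reverse complement TCATGTGA. The following stretches are shown because they hold every match among the members apart from a second CACGTG match in Ctsd, with the matched letters in capitals and each read 5′ to 3′ along the gene's strand.
Ctsd, chr1:206968813-206968844, minus strand: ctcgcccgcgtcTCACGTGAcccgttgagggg
Atp6v0d1, chr19:50357282-50357313, minus strand: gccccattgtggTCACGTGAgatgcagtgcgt
Atp6v0e1, chr10:17007114-17007145, minus strand: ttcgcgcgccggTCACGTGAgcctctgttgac
Ctsf, chr1:211582008-211582037, plus strand: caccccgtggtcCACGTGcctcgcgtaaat
Clcn7, chr10:14656215-14656244, plus strand: tccgtcctgggtCACGTGggcaccgatggt
Clcn7, chr10:14656236-14656267, plus strand: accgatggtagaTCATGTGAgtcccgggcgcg
Ctss, chr2:185775387-185775418, plus strand: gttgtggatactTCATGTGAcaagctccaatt
Atp6v0c, chr10:13705820-13705851, minus strand: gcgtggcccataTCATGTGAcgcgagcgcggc
Atp6v1a, chr11:70067467-70067498, plus strand: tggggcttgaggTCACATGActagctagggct

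TCACGTGA lay in 3 of the 31 member windows (9.68%) against 0.867% of all 27457 windows, and in 13.0% of the 23 tested members with a window against 1.62% of the 11096 windows of tested genes. CACGTG lay in 16.1% of member windows against 6.65% of all, and TCACATGA or its reverse complement in 12.9% against 1.13%. In GPI against Sham on the TMM scale, the carriers Ctss, Clcn7, Atp6v0c, Atp6v0d1, Atp6v0e1 and Atp6v1a were lower. Ctsf was not called, and Ctsd alone was higher (0.23). Of the tested members whose window held none of the 3 motifs, Ctsl, Ctsc, Ctso, Atp6v1d and Atp6v1e1 were higher. Atp6v1g1 was not called, and the rest, Tcirg1 among them, were lower. With library sizes only, every tested member except Ctsl and Atp6v0e2 was lower, carrier or not (Ctsd -0.86, Ctsf -0.96). A link between motif and direction was not tested. A match describes letters in a window and is not evidence of binding. The whole windows of Tcirg1, Ctsl and Ctss are given because the results turn on these 3 genes.
Tcirg1, chr1:210567886-210568185, minus strand: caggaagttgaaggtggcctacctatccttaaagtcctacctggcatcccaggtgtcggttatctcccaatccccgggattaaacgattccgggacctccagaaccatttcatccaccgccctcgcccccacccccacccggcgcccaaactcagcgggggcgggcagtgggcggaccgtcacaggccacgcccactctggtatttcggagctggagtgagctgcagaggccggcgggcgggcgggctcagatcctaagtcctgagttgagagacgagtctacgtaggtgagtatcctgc
Ctsl, chr17:769854-770153, plus strand: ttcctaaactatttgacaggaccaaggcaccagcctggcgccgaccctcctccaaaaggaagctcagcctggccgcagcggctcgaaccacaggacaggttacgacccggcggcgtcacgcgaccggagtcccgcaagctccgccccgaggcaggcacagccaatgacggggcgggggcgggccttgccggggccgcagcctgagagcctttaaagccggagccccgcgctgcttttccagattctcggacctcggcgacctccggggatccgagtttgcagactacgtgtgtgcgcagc
Ctss, chr2:185775146-185775445, plus strand: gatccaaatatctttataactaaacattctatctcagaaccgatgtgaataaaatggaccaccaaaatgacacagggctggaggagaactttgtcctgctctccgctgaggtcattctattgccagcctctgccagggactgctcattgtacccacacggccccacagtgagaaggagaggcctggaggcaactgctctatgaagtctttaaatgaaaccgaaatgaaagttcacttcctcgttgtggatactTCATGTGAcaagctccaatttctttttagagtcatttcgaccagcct

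Most tested members were lower in GPI than in Sham and higher in GMTT than in GPI, and the median difference between GMTT and Sham was near 0. Of the 39 members, 34 had a count in some library and 30 passed the low-count filter. Ctse, Ctsw and Atp6v1g3 had few or no counts in GPI and passed only through the other groups (1, 0 and 0 of the 3 GPI libraries reached the filter's 0.563 CPM), so they had to differ from GPI, and the counts that follow describe the tested members and support nothing about the rest. In GPI against Sham 20 of 30 were lower and 8 higher (66.7% and 26.7%), where 48.1% and 40.1% of the 15936 tested genes were lower and higher (edgeR's quasi-likelihood test, Benjamini-Hochberg adjusted p below 0.05). Their median log2 fold change was -0.82, against -0.19 over all genes, and it is the same with Atp6v1g3 set at its bound. Without these 3 genes, left out after their values were seen, 17 of 27 were lower and 8 higher, with a median of -0.62. With library sizes only, the split of the 30 was 28 lower and 2 higher, where 11210 of the 15936 tested genes were lower and 3521 higher.

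In GMTT against GPI, which shares the GPI libraries with the first contrast, 21 of 30 were higher and 6 lower (70.0% and 20.0%), beside 45.7% and 40.2% of all tested genes, with a median of 0.73 against 0.12. Without Ctse, Ctsw and Atp6v1g3, 18 of 27 were higher and 6 lower, with a median of 0.62. With library sizes only, the split of the 30 was 29 higher and 1 lower, where 11500 of the 15936 tested genes were higher and 3016 lower. GMTT against Sham gave 11 higher and 8 lower (36.7% and 26.7%), near the 29.5% and 28.3% of all genes, and the median was 0.05. As a share of all counts the members held 0.469 to 0.493% in Sham, 0.121 to 0.127% in GPI and 0.435 to 0.454% in GMTT. These shares are not TMM-scaled, so they carry the shift in library make-up of GPI. They also lean on Ctsb, the member with the most counts in Sham and in GMTT.

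**Figure D1:**
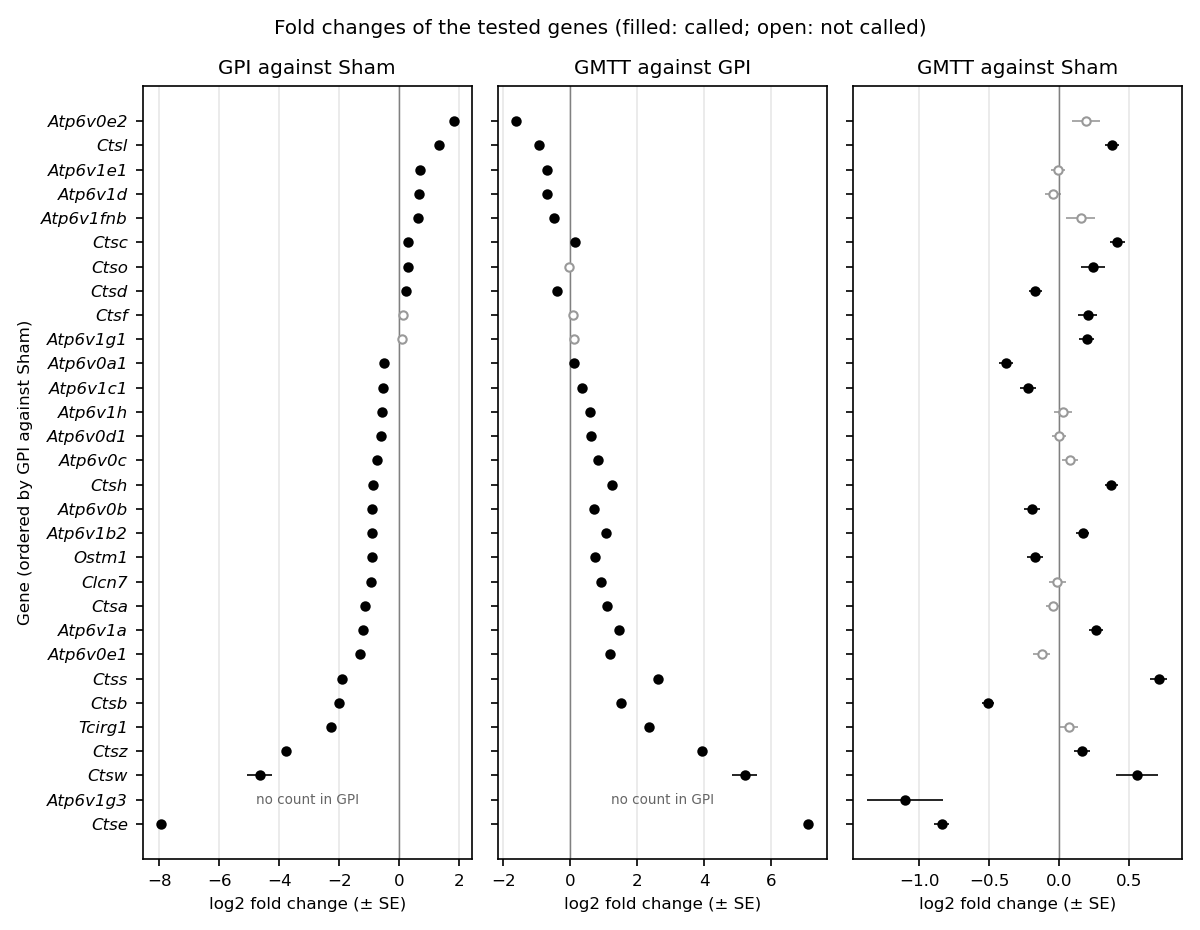
Log2 fold changes (x axis, TMM scale) with standard errors for the 30 tested members, ordered by GPI against Sham, in the 3 contrasts; filled points passed an adjusted p of 0.05 and open points did not. Ctse, which passed the filter through the other groups, lies lowest at -7.94 and Atp6v0e2 highest at 1.82 in GPI against Sham, and no point is drawn for Atp6v1g3 against GPI, which had no count for it.

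The V0 sector fell in GPI apart from the e isoform Atp6v0e2. Of 7 tested V0 genes, 6 were lower and 1 higher than in Sham (85.7% and 14.3%, beside 48.1% and 40.1% of all tested genes). GMTT against Sham gave 2 lower and 5 not called, and the 28.6% lower was near the 28.3% of all genes. Tcirg1, the a subunit isoform of osteoclasts and other acid-secreting cells (ENSRNOG00000017220, chromosome 1, 201127034 to 201138742, all gene positions on mRatBN7.2), fell most among the V0 genes. It stood at 69.9, 62.5 and 69.7 CPM in the 3 Sham libraries, 13.6, 12.7 and 15.0 in GPI and 74.8, 75.3 and 62.3 in GMTT. Every GPI library lay far below the rest, and Sham and GMTT overlapped. The log2 fold change was -2.29 in GPI against Sham (SE 0.09, adjusted p = 5.82e-21), a fall of 4.90-fold. It was 2.37 in GMTT against GPI (SE 0.09, adjusted p = 2.6e-21). GMTT against Sham was 0.07 (SE 0.06, adjusted p = 0.345), but without GMTT replicate 3 it was 0.16 (adjusted p = 0.0134).

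Atp6v0a1, the widely expressed a isoform (ENSRNOG00000036814, chromosome 10, 85935854 to 85989895), changed less. It stood at 130.0, 121 and 128 CPM in Sham, 87.8, 88.7 and 91.2 in GPI and 99.8, 99.3 and 92.7 in GMTT, so both injured groups lay below Sham without overlap. Its log2 fold change was -0.50 in GPI against Sham (SE 0.05, adjusted p = 1.89e-10) and -0.38 in GMTT against Sham (SE 0.05, adjusted p = 1.05e-07). The rise of 0.12 in GMTT against GPI (SE 0.05, adjusted p = 0.0293) was not called under 7 of the 19 alternatives: median-of-ratios scaling, a filter of 5 CPM, the replicate block and leaving out GPI replicate 1 or 2 or GMTT replicate 1 or 2 (0.09 to 0.12, adjusted p 0.0548 to 0.12). Atp6v0a4, the isoform of kidney, had no count in any library.

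The a isoforms were therefore compared per length inside each library, which no scaling between libraries can move. Of the summed FPKM (fragment counts divided by gene length and library scale) of Atp6v0a1, Tcirg1 and Atp6v0a4, Tcirg1 made up 41.2, 40.1 and 41.5% in Sham, 16.8, 15.7 and 17.7% in GPI and 49.4, 49.7 and 46.7% in GMTT. No groups overlapped, with GPI lowest and GMTT highest. The mean difference was -24.2 percentage points for GPI against Sham, 31.9 for GMTT against GPI and 7.64 for GMTT against Sham. Each had an exact permutation p = 0.1 (two-sided, n = 3 per group), the smallest that 3 against 3 libraries allow.

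The e subunit isoforms moved in opposite directions. Atp6v0e1, its main isoform here (ENSRNOG00000003269, chromosome 10, 16479567 to 16524434), stood at 67.4, 63.8 and 74.7 CPM in Sham, 25.6, 30.1 and 26.3 in GPI and 62.3, 66.0 and 60.3 in GMTT. GPI lay below both other groups, which overlapped (log2 -1.33, SE 0.07, adjusted p = 1.85e-17 against Sham; -0.13, adjusted p = 0.0785 for GMTT against Sham). Without Sham replicate 2, the second of these was -0.18 (adjusted p = 0.0203).

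Atp6v0e2, an isoform known from brain and some other tissues (ENSRNOG00000008218, chromosome 4, 77482226 to 77488777), stood at 7.82, 7.83 and 9.05 CPM in Sham, 28.8, 29.2 and 29.6 in GPI and 10.7, 9.27 and 8.29 in GMTT. All GPI libraries were about equally high and clear of the rest, a rise of 3.54-fold over Sham (log2 1.82, SE 0.10, adjusted p = 6.05e-18), still 0.73 with library sizes only. GMTT against GPI was -1.63 (SE 0.09, adjusted p = 6.71e-17), and -0.53 with library sizes only. GMTT against Sham was 0.19 (adjusted p = 0.108), rising to 0.26 without Sham replicate 3 and 0.28 without GMTT replicate 3, each called. Of the e isoforms' FPKM, Atp6v0e2 made up 7.39% ± 0.201 in Sham, 41.6% ± 2.08 in GPI and 9.04% ± 1.02 in GMTT (SD, n = 3), with no overlap between groups and an exact permutation p = 0.1 in each contrast.

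The other V0 genes fell moderately in GPI. These were the proton-carrying ring subunits Atp6v0c (-0.74) and Atp6v0b (-0.90) and the d subunit Atp6v0d1 (-0.62), which joins V0 to the V1 stalk. They were higher in GMTT than in GPI by 0.82, 0.71 and 0.62. Against Sham only Atp6v0b passed the test in GMTT, at -0.19 (adjusted p = 0.00462), although Atp6v0c was called at 0.13 without GMTT replicate 3.

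**Figure D2:**
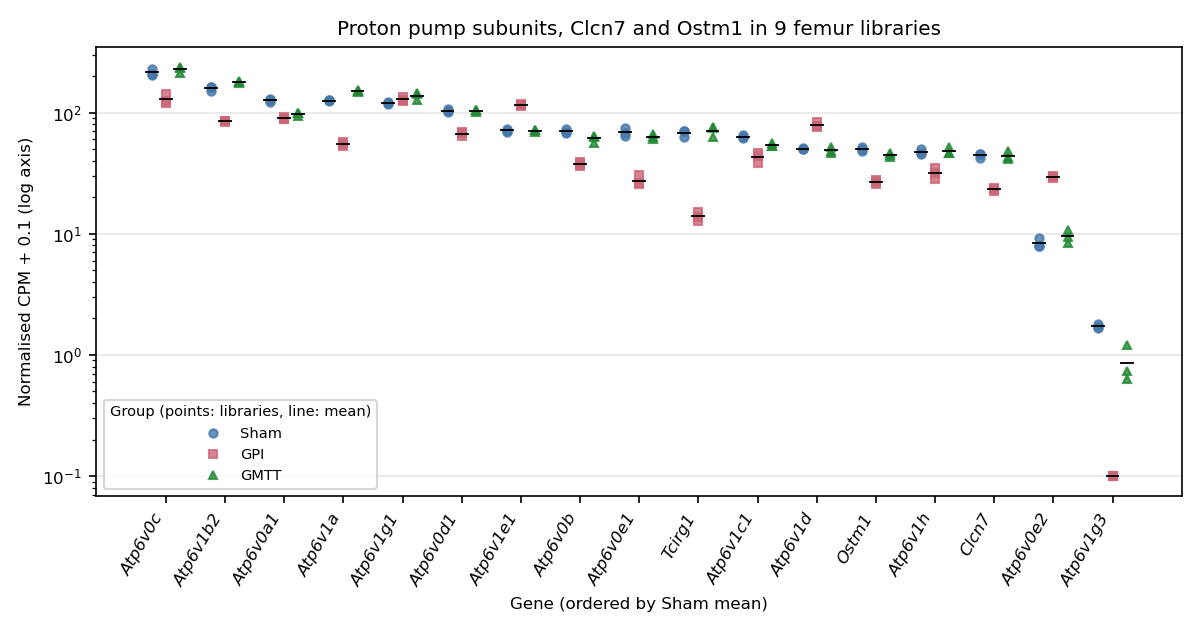
Normalised CPM + 0.1 (log axis) of the 15 tested pump subunits, Clcn7 and Ostm1 in each of the 9 libraries, with points for libraries and a line for each group mean. GPI lies far below the other groups for Tcirg1 (mean 13.8 against 67.4 and 70.8) and above them for Atp6v0e2 (mean 29.2 against 8.24 and 9.41).

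The V1 sector was mixed. Of 8 tested genes, 5 were lower, 2 higher and 1 not called in GPI against Sham (62.5% lower and 25.0% higher, beside 48.1% and 40.1% of all tested genes). Without Atp6v1g3, 4 of 7 were lower and 2 higher. The catalytic A subunit Atp6v1a stood at 126, 126 and 124 CPM in Sham, 56.5, 52.6 and 54.8 in GPI and 149, 149.5 and 154 in GMTT, with 3 groups that did not overlap. It fell by 1.20 (log2) in GPI and was 0.26 above Sham in GMTT (SE 0.05, adjusted p = 1.65e-05). Its partner in the ATPase ring, the B subunit Atp6v1b2, followed the same order, at -0.91 in GPI and 0.17 in GMTT against Sham. Atp6v1c1 and Atp6v1h, a clamp and a regulator of the sector, were at -0.56 and -0.58 in GPI. In GMTT against Sham, Atp6v1c1 remained lower (-0.22) and Atp6v1h did not pass the test (0.03).

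Atp6v1e1, the E subunit of the outer stalk (ENSRNOG00000011905, chromosome 4, 154022358 to 154044584), stood at 69.6, 70.5 and 73.0 CPM in Sham, 112, 116 and 116 in GPI and 71.3, 68.9 and 71.7 in GMTT. GPI lay clear above the overlapping other groups (log2 0.69 against Sham, SE 0.05, adjusted p = 5.11e-14). Atp6v1d, of the central shaft, was alike at 0.64. Both signs depend on the scale: with library sizes only they were -0.40 and -0.45.

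Atp6v1g1, the main G subunit (ENSRNOG00000063197, chromosome 5, 76961499 to 76969463), stood at 118, 123 and 121 CPM in Sham, 125, 134 and 127 in GPI and 142, 128 and 144 in GMTT, where only GMTT against Sham passed the test (0.20, SE 0.05, adjusted p = 0.00151). In GPI against Sham it was 0.10 (adjusted p = 0.0877), but it was called under 7 of the 19 alternatives (0.12 to 0.16, adjusted p 0.00678 to 0.0417): median-of-ratios scaling, a filter of 5 CPM, the fit of 6 libraries, DESeq2, both limma fits and leaving out GMTT replicate 3. With library sizes only it was -1.0. In GMTT against GPI it was 0.10 (adjusted p = 0.0771), called without a low-count filter, in the fit of 6 libraries and without GPI replicate 2 or GMTT replicate 2 (0.11 to 0.16), and at 1.20 with library sizes only. Atp6v1g3, a G isoform known from kidney (ENSRNOG00000022480, chromosome 13, 49794222 to 49825247), was scarce, at 1.56, 1.69 and 1.61 CPM in Sham and 0.640, 0.527 and 1.10 in GMTT, and had no count in GPI. Taking 3 counts over the GPI group as the floor, GPI was at least 18.46-fold lower than Sham and GMTT at least 8.568-fold higher than GPI. GMTT stayed below Sham without overlap, at -1.10 (SE 0.27, adjusted p = 0.000925). It made up 1.87%, 0% and 0.761% of the G isoforms' FPKM in Sham, GPI and GMTT. The other alternative V1 isoforms were near the detection limit: Atp6v1b1, Atp6v1c2, Atp6v1e2 and Atp6v1g2 had 0 to 32 counts per group and were not tested.

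The exchanger genes fell together in GPI. Clcn7 (ENSRNOG00000016976, chromosome 10, 14151758 to 14177130) stood at 45.7, 42.3 and 45.3 CPM in Sham, 22.6, 23.4 and 23.7 in GPI and 47.7, 42.9 and 41.3 in GMTT. Ostm1 (ENSRNOG00000037647, chromosome 20, 46153075 to 46187023) stood at 48.1, 49.8 and 51.7, 25.4, 27.6 and 26.4 and 42.6, 46.3 and 44.2 in the same order. GPI lay below both other groups for each gene, and GMTT overlapped Sham for Clcn7 and lay just below it for Ostm1. The log2 fold changes in GPI against Sham were -0.93 (SE 0.07, adjusted p = 1.77e-13) and -0.91 (SE 0.07, adjusted p = 3.56e-14). In GMTT against GPI they were 0.92 (SE 0.07, adjusted p = 2.69e-13) and 0.74 (SE 0.07, adjusted p = 7.43e-12). Against Sham, GMTT was -0.01 for Clcn7 (adjusted p = 0.859) and -0.17 for Ostm1 (SE 0.06, adjusted p = 0.0120), the latter not called without Sham replicate 3 or GMTT replicate 1, by DESeq2 or by limma on log2(FPKM + 0.1) (-0.14 in all 4).

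Cathepsin genes were split in GPI. Of 12 tested, 7 were lower and 4 higher than in Sham (58.3% and 33.3%), near the 48.1% and 40.1% of all tested genes, and without Ctse and Ctsw 5 of 10 were lower. In GMTT against GPI 8 were higher and 2 lower (66.7% and 16.7%, beside 45.7% and 40.2% of all tested genes). Without Ctse and Ctsw, which had to be higher there, 6 of 10 were higher and 2 lower. In GMTT against Sham 8 were higher and 3 lower (66.7% and 25.0%, beside 29.5% and 28.3%). With library sizes only the 3 splits were 11 lower and 1 higher, 12 higher, and 8 higher and 3 lower. On that scale the 15936 tested genes gave 11210 lower and 3521 higher, 11500 higher and 3016 lower, and 4802 higher and 4370 lower. Per length, Ctsb led the members in every group, at 575 FPKM in Sham, 145 in GPI and 413 in GMTT. Placental cathepsins Ctsj, Ctsm, Ctsq and Ctsr had no count.

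Ctss, a cysteine cathepsin of antigen-presenting and phagocytic cells that cuts the invariant chain (ENSRNOG00000021157, chromosome 2, 183086437 to 183114483), stood at 40.6, 40.9 and 43.0 CPM in Sham, 12.5, 10.9 and 9.34 in GPI and 67.5, 66.7 and 69.6 in GMTT. Groups did not overlap, with GPI lowest and GMTT highest. It fell 3.78-fold in GPI (log2 -1.92, SE 0.08, adjusted p = 3.28e-20) and was 6.18-fold higher in GMTT than in GPI (log2 2.63, SE 0.08, adjusted p = 1.69e-24). Its rise in GMTT over Sham, 0.71 (SE 0.06, adjusted p = 5.85e-12), was the highest of the tested members.

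Ctsl, a widely expressed endopeptidase of lysosomes (ENSRNOG00000018566, chromosome 17, 764309 to 770548), stood at 59.2, 59.0 and 58.8 CPM in Sham, 144, 142 and 153 in GPI and 73.6, 77.4 and 78.9 in GMTT. GPI was highest, GMTT lay between, and no groups overlapped. The rise in GPI was 2.48-fold (log2 1.31, SE 0.05, adjusted p = 3.9e-21) on the TMM scale and 0.22 (log2, adjusted p = 0.00029) with library sizes only. GMTT against GPI was -0.93 (SE 0.05, adjusted p = 2.82e-17) on the TMM scale but 0.17 (adjusted p = 0.00276) with library sizes only. GMTT stayed above Sham at 0.38 (SE 0.05, adjusted p = 2.63e-07).

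The ratio of Ctss to Ctsl by FPKM, a description chosen after the values were seen, was 1.02, 1.04 and 1.09 in the Sham libraries, 0.130, 0.115 and 0.0908 in GPI and 1.37, 1.29 and 1.32 in GMTT. This ratio needs no scaling between libraries. Ctsl ranked 17 among the members by FPKM in Sham, 4 in GPI and 14 in GMTT. Ctss ranked 16, 23 and 11 in that order.

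**Figure D3:**
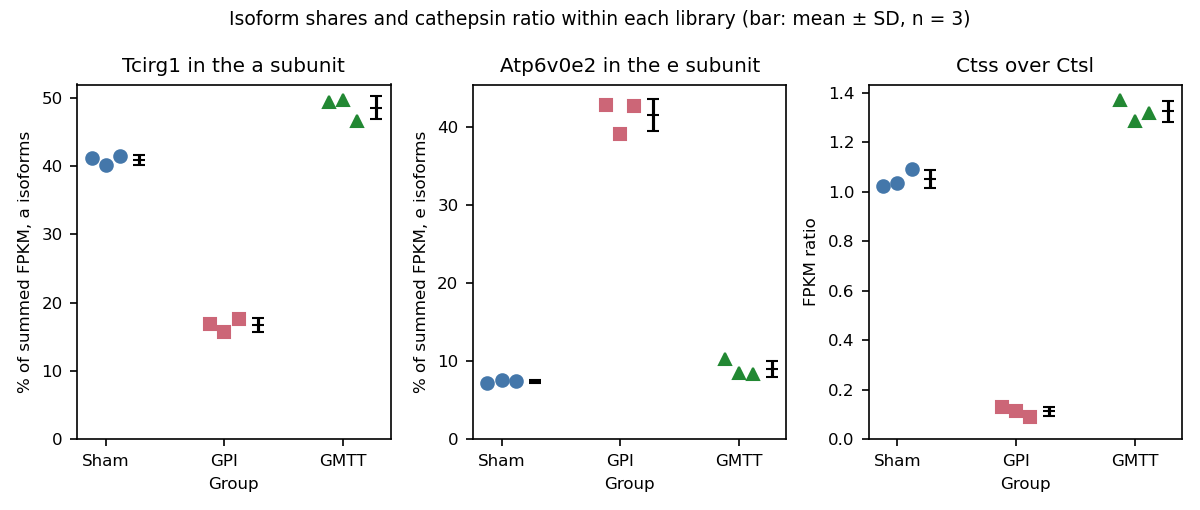
The Tcirg1 share of a subunit FPKM, the Atp6v0e2 share of e subunit FPKM and the Ctss over Ctsl FPKM ratio in each library, with mean ± SD of 3 libraries beside the points. GPI stands apart from both other groups in all 3 panels, at means of 16.7%, 41.6% and 0.112.

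Ctsb, an abundant cysteine cathepsin (ENSRNOG00000010331, chromosome 15, 37389629 to 37410500), stood at 1085, 1074 and 1119.8 CPM in Sham, 263, 279 and 269.5 in GPI and 780.2, 768 and 760.0 in GMTT. GPI was lowest and GMTT between, without overlap. It fell 4.04-fold in GPI (log2 -2.01, SE 0.04, adjusted p = 1.07e-28), rose by 1.51 in GMTT over GPI, and was the 1 cysteine cathepsin of 9 tested that was lower in GMTT than in Sham, at -0.51 (SE 0.04, adjusted p = 3.44e-12). The other 8 were higher. That is 88.9% higher and 11.1% lower, beside 29.5% and 28.3% of all tested genes. Among the 8, the calls of Ctsf, Ctso, Ctsw and Ctsz were lost under some alternatives.

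Ctsz, a carboxypeptidase (ENSRNOG00000050697, chromosome 3, 163224875 to 163235645), stood at 204, 203 and 243 CPM in Sham, 15.1, 17.0 and 15.6 in GPI and 249, 248 and 229 in GMTT. GPI was 13.6-fold lower than Sham (log2 -3.77, SE 0.08, adjusted p = 5.69e-28) and 3.93 (log2) below GMTT. Sham and GMTT overlapped, and their difference of 0.16 (adjusted p = 0.0164) was not called without Sham replicate 1 or 2 (0.12 and 0.11) or GMTT replicate 1 or 2 (0.14 each), nor by limma on log2(FPKM + 0.1) (0.20, adjusted p = 0.0508).

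Ctsh, an aminopeptidase (ENSRNOG00000014064, chromosome 8, 90608941 to 90627824), stood at 153, 158 and 164 CPM in Sham, 84.3, 88.5 and 83.1 in GPI and 203, 206 and 205 in GMTT, again with GPI lowest, GMTT highest and no overlap. Its log2 fold changes were -0.89 in GPI against Sham (SE 0.05, adjusted p = 4.08e-17), 1.26 in GMTT against GPI and 0.37 in GMTT against Sham (SE 0.05, adjusted p = 3.9e-08).

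Ctsc, a dipeptidyl peptidase that activates granule serine proteases (ENSRNOG00000016496, chromosome 1, 142028392 to 142060387), stood at 53.7, 60.7 and 53.8 CPM in Sham, 66.8, 69.4 and 68.2 in GPI and 73.7, 73.9 and 77.0 in GMTT. It lay 0.28 above Sham in GPI on the TMM scale (-0.81 with library sizes only) and 0.42 above it in GMTT (SE 0.06, adjusted p = 1.21e-07). Its rise of 0.14 in GMTT over GPI was not called under 6 of the 19 alternatives: median-of-ratios scaling, a filter of 5 CPM, DESeq2 and leaving out GPI replicate 1, GPI replicate 3 or GMTT replicate 3 (0.08 to 0.14, adjusted p 0.0559 to 0.19).

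Ctsw, a cathepsin of cytotoxic lymphocytes (ENSRNOG00000027096, chromosome 1, 202772572 to 202775964), was scarce, at 2.84, 3.42 and 3.08 CPM in Sham, 0, 0.168 and 0.193 in GPI and 4.95, 4.52 and 4.30 in GMTT. It had 204, 4 and 317 counts in the groups, a ratio of 26.64 for Sham over GPI (95% counting interval 10.25 to 98.71) and 39.17 for GMTT over GPI (15.15 to 144.7). GMTT was above Sham by 0.56 (SE 0.15, adjusted p = 0.00251), not called by limma on log2(FPKM + 0.1) (adjusted p = 0.139). Ctsf and Ctso, both little studied, were 0.20 and 0.24 above Sham in GMTT. These calls were lost without Sham replicate 2 (0.16 and 0.22) and, for Ctso, without GMTT replicate 1 (0.20).

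The aspartic cathepsins parted. Ctse, a protease of blood, immune and epithelial cells that is not confined to lysosomes (ENSRNOG00000006963, chromosome 13, 43092128 to 43114502), was nearly missing from the GPI libraries, and since it passed the filter only through the other groups its place among the members is no result. It stood at 181, 178 and 186 CPM in Sham, 1.18, 0.504 and 0.481 in GPI and 103, 99.5 and 102 in GMTT, without overlap. Its 11865, 25 and 7010 counts gave a ratio of 247.9 for Sham over GPI (95% counting interval 167.8 to 383.2) and 138.6 for GMTT over GPI (93.81 to 214.3). GMTT was below Sham, at -0.84 (SE 0.05, adjusted p = 5.4e-15). Ctsd, the main aspartic protease of lysosomes (ENSRNOG00000020206, chromosome 1, 197527467 to 197539488), stood at 257, 249 and 275, 302, 321 and 295 and 240.2, 232 and 222 CPM in the same order. GPI lay highest on the TMM scale (log2 0.23 against Sham, SE 0.05, adjusted p = 5.2e-05) but was -0.86 against Sham with library sizes only. GMTT against Sham was -0.17 (SE 0.05, adjusted p = 0.00347).

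Ctsa, the carboxypeptidase that also protects the lysosomal enzymes Glb1 and Neu1 (ENSRNOG00000015857, chromosome 3, 153568381 to 153576215), stood at 209.7, 196 and 219 CPM in Sham, 94.0, 98.1 and 90.0 in GPI and 206, 204 and 195 in GMTT. GPI lay below the overlapping other groups (log2 -1.15 against Sham, SE 0.05, adjusted p = 1.56e-19). Its partners moved alike, Glb1 at -1.41 and Neu1 at -2.49. In GMTT against Sham, Ctsa and Glb1 did not pass the test (-0.04 and 0.14) and Neu1 was lower (-0.17).

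**Figure D4:**
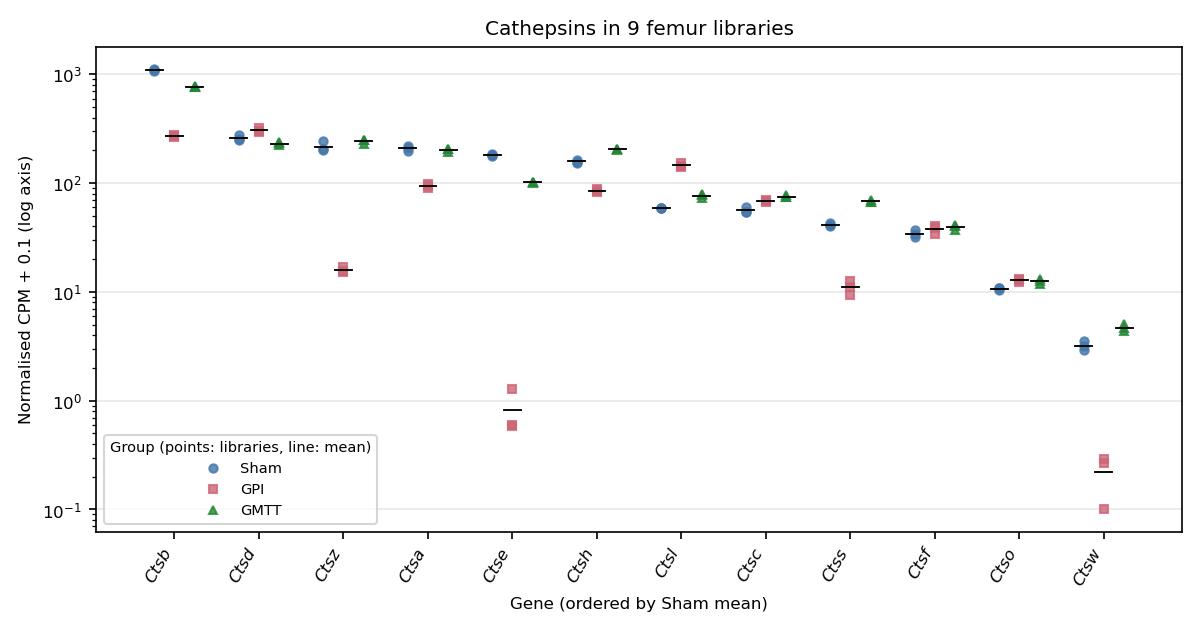
Normalised CPM + 0.1 (log axis) of the 12 tested cathepsins in each of the 9 libraries, with points for libraries and a line for each group mean. The GPI libraries lie far below both other groups for Ctsz, Ctse, Ctss and Ctsw and above them for Ctsl (mean 146 against 59.0 and 76.6).

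Summed markers of several blood and bone cell types were also lowest in GPI. Monocyte and macrophage markers (10 genes, all detected in each group) held 0.588 to 0.624% of counts in Sham, 0.00768 to 0.00808% in GPI and 0.636 to 0.661% in GMTT. Osteoclast markers (10 genes, with Ocstamp at 0 in GPI) held 0.107 to 0.111%, 0.00577 to 0.00589% and 0.104 to 0.111%. Of these 10, 8 were lower in GPI than in Sham (80.0%, beside 48.1% of all tested genes). Nfatc1, a transcription factor of osteoclasts and other cells, was higher (1.02, adjusted p = 1.15e-14), and Calcr, the calcitonin receptor, did not pass the test (-0.08). Atp6v0d2, Dcstamp, Ocstamp and Oscar reached the filter's cutoff in 0 GPI libraries, passed only through the other groups and so had to be lower. Calcr reached it in 2. Without these 5 genes, 4 of 5 were lower and 1 higher. With library sizes only, 9 of the 10 were lower and 0 higher, where 11210 of the 15936 tested genes were lower. Neutrophil markers (11 genes) held 0.991 to 1.06%, 0.000526 to 0.000634% and 1.19 to 1.25%, and erythroid markers (10 genes) 7.79 to 8.73%, 0.103 to 0.113% and 4.17 to 4.57%. T and NK lymphocyte markers (9 genes) held 0.0118 to 0.0119%, 6.11e-05 to 0.000127% and 0.0135 to 0.0150%, and B lymphocyte markers (9 genes, with Vpreb1 at 0 in GPI) 0.0950 to 0.1003%, 0.00125 to 0.00159% and 0.0609 to 0.0627%. The part of these cells in the members' differences was not tested, and in bulk tissue fewer cells of a type and less RNA per cell cannot be told apart.

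The genes that the choice of members left out were also low in GPI. Ctsk, the collagen-degrading cathepsin of osteoclasts, stood at 392 ± 5.75 CPM in Sham, 35.4 ± 1.35 in GPI and 346 ± 6.30 in GMTT (SD, n = 3). Ctsg, of neutrophil granules, stood at 349 ± 16.0, 0.293 ± 0.0434 and 452 ± 18.2. Atp6v0d2, the d isoform of osteoclasts, had 510, 4 and 672 counts, a ratio of 66.6 for Sham over GPI (95% counting interval 25.85 to 245.4).

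Other genes of the lysosome were counted in lists chosen by function. Of 34 lysosomal hydrolases and their activators, 26 were lower and 6 higher in GPI than in Sham (76.5% and 17.6%, beside 48.1% and 40.1% of all tested genes). Gusb, which removes glucuronic acid from glycosaminoglycans, was lowest at -3.48 and Gaa, which degrades glycogen, highest at 1.92. In GMTT against GPI 28 were higher and 4 lower (82.4% and 11.8%, beside 45.7% and 40.2%). Against Sham 14 were higher and 3 lower in GMTT (41.2% and 8.82%, beside 29.5% and 28.3%), led by Sgsh, a heparan sulfatase, at 1.03 (from 8.39 ± 0.565 to 17.1 ± 1.58 CPM). Medians were -0.70, 0.90 and 0.13 in the 3 contrasts.

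Of 12 pump accessory and assembly genes, 6 were lower and 5 higher in GPI than in Sham, and 6 were higher and 6 lower in GMTT than in GPI. Scaled by library sizes only, these splits were 11 lower and 1 higher, and 11 higher and 0 lower. The 15936 tested genes then gave 11210 lower and 3521 higher, and 11500 higher and 3016 lower. Atp6ap2, an accessory subunit also called the prorenin receptor, was lower at -1.73, Tmem9 lowest at -3.42, and Vma21, an assembly chaperone of V0, highest at 1.32. Of 10 genes of mannose 6-phosphate tagging and sorting, the route that brings most hydrolases to lysosomes, 8 were lower and 2 higher in GPI. That is 80.0% and 20.0%, beside 48.1% and 40.1% of all tested genes. The list ran from Gga2, a sorting adaptor, at -2.11 to the receptor Igf2r at 1.69. In GMTT against Sham the accessory list gave 2 higher and 2 lower (16.7% each) and the mannose 6-phosphate list 4 higher and 2 lower (40.0% and 20.0%). Over all tested genes these shares were 29.5% and 28.3%.

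Lysosomal membrane genes were split on the TMM scale. Of 19 tested, 8 were higher and 7 lower in GPI (42.1% and 36.8%, beside 40.1% and 48.1% of all genes), from Laptm5, a gene of blood cells, at -5.13 to Scarb2, the carrier of glucocerebrosidase, at 2.40. In GMTT against GPI 9 were higher and 7 lower (47.4% and 36.8%, beside 45.7% and 40.2%). In GMTT against Sham 9 were higher (47.4%, beside 29.5%) and 10 not called. On library sizes alone, GPI against Sham gave 4 higher and 14 lower, and GMTT against GPI gave 15 higher and 2 lower. The 15936 tested genes then gave 3521 higher and 11210 lower, and 11500 higher and 3016 lower. The TFEB family and nutrient-sensing genes went the other way on the TMM scale, with 10 of 14 higher and 2 lower in GPI (71.4% and 14.3%, beside 40.1% and 48.1%). With library sizes only, however, 3 were higher and 9 lower. Within this list Rragd (3.67) and Mitf (2.17) were highest and Tfec, the family member of myeloid cells, lowest (-4.01), though Tfec passed the filter only through the other groups. In GMTT against GPI the list gave 2 higher and 10 lower (14.3% and 71.4%, beside 45.7% and 40.2%), turning to 10 higher and 2 lower with library sizes only. In GMTT against Sham it gave 8 higher (57.1%, beside 29.5%) and 6 not called.

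Cystatins and stefins inhibit cysteine cathepsins, and 5 of 8 could be tested. Of these, Stfa2 and Stfa2l1 passed the filter only through Sham, so they had to be lower in GPI and in GMTT. Cst7 reached the filter's cutoff in 2 GPI libraries and in 3 libraries of each other group. Cst7, an inhibitor of leukocytes, stood at 27.1 ± 1.44 CPM in Sham, 0.951 ± 0.349 in GPI and 41.0 ± 1.24 in GMTT (log2 -4.80 and 0.60 against Sham). Cst3, the most abundant, was lower in both injured groups, at -0.45 in GPI and -0.56 in GMTT against Sham. Cstb, a cytosolic stefin, was at -0.93 and 0.21.

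**Figure D5:**
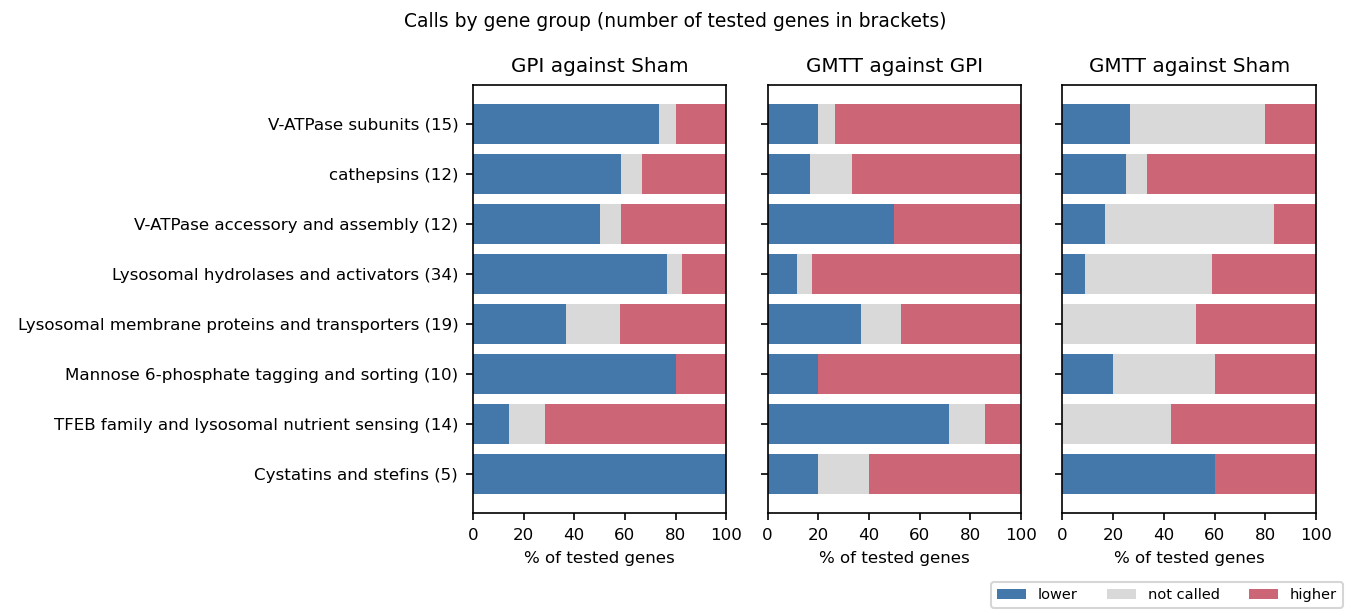
Percent of tested genes called lower, not called and called higher on the TMM scale for the pump subunits, the cathepsins and 6 further lysosomal lists in the 3 contrasts, with numbers of tested genes in brackets. In GPI against Sham the pump subunits (73.3% lower), hydrolases (76.5%) and mannose 6-phosphate genes (80.0%) lie mostly lower, and the TFEB list mostly higher (71.4%). Over all tested genes 48.1% were lower and 40.1% higher. The pump subunits include Atp6v1g3, which had no count in GPI and passed the filter only through the other groups. With library sizes only, 3 genes of the TFEB list were higher and 9 lower.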

How the data were processed

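The 9 libraries of rat femur were made, per the labels' protocols, from TRIzol-extracted RNA after poly(A) selection, with dUTP marking the strand and paired-end reads. The authors deposited read counts per gene and FPKM values per gene, on the mRatBN7.2 build per the submitters' processing notes; the aligner and the counter's strand and multiple-match settings were not given in the sources used here. Near-identical or antisense genes are therefore uncertain. The deposited FPKM equalled count over length over 1 constant per library (relative deviation up to 6.42e-14), so it carries a scaling between libraries.

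Counts were fitted with edgeR 4.0.16 in R 4.3.3 (quasi-likelihood F test, robust, 9 libraries in 1 model of 3 groups, TMM, default low-count filter with a minimum count of 10), with Benjamini-Hochberg adjustment over 15936 genes and a threshold of 0.05. TMM factors were 1.28 to 1.30 in Sham and GMTT and 0.600 to 0.604 in GPI. SE is the log2 fold change over the square root of F. Shares and ratios used FPKM within a library, with exact permutation tests. Intervals have a confidence level of 95%, and the floor is 3 counts over a group; both cover counting error only. The coefficient of variation between libraries beyond counting error, from edgeR's dispersions, had a median of 5.09%. It may be partly technical.

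The members and lists were chosen with earlier results of these data known. Genes given in full were Tcirg1, Ctss, Ctsl, Clcn7, Ostm1, isoforms called in opposite directions, the 3 highest and 3 lowest fold changes in GPI against Sham and in GMTT against Sham, and cathepsins reaching 100 CPM; from each list, the highest and lowest were named. Other list genes and Atp6v0a1 were added after their values were seen. Labels number the libraries 1 to 3 in each group, but same-numbered libraries did not deviate together (r -0.323 to 0.127 over 9 pairs). The 19 alternatives were other scalings and filters, DESeq2 1.42.0, limma 3.58.1 on log2(FPKM + 1) and log2(FPKM + 0.1), a replicate block, fits of 6 libraries and leaving out each library. The test was checked on simulated counts with a small set of changed genes, raised and lowered in equal number. That simulation did not hold the shift in library make-up seen in GPI, so it does not cover the choice of scale. Promoters were RefSeq windows of GRCr8, a build other than that of the counts.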

Additional observations from a re-analysis of the deposited data

How the results depend on the processing

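Counts of called members kept within 1.5 times their value under the 19 alternatives, except with library sizes only, where 2 rather than 8 members were higher in GPI against Sham (Ctsl and Atp6v0e2) and 1 rather than 6 lower in GMTT against GPI (Atp6v0e2). The same setting reversed, in GPI against Sham, Atp6v1d (-0.45), Atp6v1e1 (-0.40), Atp6v1fnb (-0.47), Atp6v1g1 (-1.0), Ctsc (-0.81), Ctsd (-0.86), Ctsf (-0.96) and Ctso (-0.82), and in GMTT against GPI, Atp6v1d (0.41), Atp6v1e1 (0.40), Atp6v1fnb (0.63), Ctsd (0.70), Ctsl (0.17) and Ctso (1.07). The cause was not tested beyond the change of scale itself. Leaving out 1 library gave 8 to 10 higher and 20 lower members in GPI against Sham, 19 to 21 and 6 in GMTT against GPI, and 8 to 15 and 7 to 9 in GMTT against Sham, and a Tcirg1 share difference of -24.7 to -23.7, 31.3 to 32.8 and 7.09 to 8.60 percentage points. Differences near 0 also changed sign: Ctso in GMTT against GPI (-0.06 to 0.02 when 1 library was left out, positive without GMTT replicate 2), and in GMTT against Sham Atp6v1e1 (0.03 with median-of-ratios scaling, 0.02 with DESeq2 and both limma fits, 0.01 without Sham replicate 3 or GMTT replicate 2), Atp6v1h (-0.02 without GMTT replicate 3, up to 0.07 without Sham replicate 2) and Clcn7 (0.02 with median-of-ratios scaling and DESeq2, 0.01 with both limma fits and without Sham replicate 1, from -0.08 without GMTT replicate 1 to 0.04 without GMTT replicate 3).

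A replicate block, fitted although the numbers do not pair the libraries, gave 8 higher and 20 lower, 20 and 6, and 11 and 8 members in the 3 contrasts; its 1 changed call was Atp6v0a1 in GMTT against GPI (0.12, adjusted p = 0.0548). Depth limits the 4 scarce V1 isoforms, Ctsw and Atp6v1g3, whose values rest on few counts.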

Other observations

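Further genes related to the members by name or structure were looked at after their values were seen. Atp6ap1l, a gene named for its likeness to the pump accessory subunit Atp6ap1, had 3 counts over the Sham libraries, 16 over GPI and 378 over GMTT, or 0.0479 ± 0.0489, 0.465 ± 0.108 and 5.47 ± 0.762 CPM (SD, n = 3). It passed the low-count filter only through GMTT, so no test of it is given. Atp6ap1 stood at 96.8, 114 and 104 CPM. Ctla2a, whose product resembles the propeptide of cysteine cathepsins, stood at 25.9 ± 0.871, 4.84 ± 1.39 and 26.4 ± 1.24 CPM. Stfa2l1, a stefin, stood at 2.02 CPM in Sham, had no count in GPI and was at 0.0288 CPM in GMTT.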
